A study of Mus musculus with 6 samples.

Results

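The 8 genes described here encode structural proteins of peripheral myelin, Mbp, Pmp22, Mag, Gjb1, Prx, Mal, Cldn11 and Pllp, and were taken by gene symbol from a table of 20173 genes. All 8 were found in it, and 7 passed the filter for testing, with Mag left out for low counts. RNA-Seq was performed on 6 libraries, 3 from Slit2fl/fl mice, whose Slit2 gene is flanked by loxP sites and intact, and 3 from Slit2th mice, in which Th-Cre deletes the floxed gene in cells that express tyrosine hydroxylase (labelled SLIT2f/f and SLIT2-knockout). Both groups carry the floxed allele, were 3-week-old males per the study's methods, and differ in Th-Cre, for which no library with Cre alone was analysed here. The methods describe sympathetic chains cultured for 4 to 5 days, although the dissection text they refer to speaks of dorsal root neurons. The labels name neurons of the sympathetic ganglion, and the Results speak of both cultured neurons and ganglia. None of these sources says how many animals went into a library, so p-values measure only the spread between these libraries, which may be technical. The study sequenced this material to find genes that depend on Slit2 in sympathetic nerves, and the myelin genes are read here from the same comparison.

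In a peripheral nerve, Schwann cells wrap an axon in layers of their own membrane. Most of the wrap is compact myelin, in which membrane faces are held together by dedicated proteins, while cytoplasm remains at the innermost turn, the outermost turn, the paranodes and the Schmidt-Lanterman incisures. Proteins of compact myelin (Mbp, Pmp22 and the lipid raft proteins Mal and Pllp) thus differ in place from those of the noncompact regions and the outer surface (Mag, Gjb1, Prx) and from tight junction claudins (Cldn11). Myelin genes are switched on when Sox10, the glial lineage factor, works with Egr2, the regulator of myelination, and are low in immature, non-myelinating and cultured Schwann cells. Several of these genes, Mbp, Mag, Mal and Cldn11 among them, are also expressed by oligodendrocytes, the myelinating glia of the central nervous system.

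Total counts per library ranged from 1533367 to 3155406 in Slit2fl/fl against 1255939 to 1999485 in Slit2th, and a count of 3, taken as the floor of detection for counting error only, was 0.951 CPM in the deepest library and 2.39 CPM in the shallowest. Levels below are CPM, the count of a gene scaled to library size, after TMM normalization. The targeted gene, Slit2, had 139, 85 and 77 counts in the Slit2fl/fl controls but 17, 24 and 27 in Slit2th, with no overlap (47.8 ± 6.33 against 13.9 ± 2.12 CPM, SD, n = 3 each). Its log2 fold change of −1.78 (SE 0.371) had an adjusted p of 0.422 in edgeR's quasi-likelihood test. By the same test, 0 of 12152 genes tested passed an adjusted p of 0.05 (smallest 0.357), while 1309 had an unadjusted p under 0.05. Replicate 1 of each group stood apart in genes with high values, counted over 7483 tested genes with a mean of at least 10 CPM. Of these, 999 were at least 3-fold above the median of the other 5 libraries in Slit2fl/fl replicate 1. The number was 758 in Slit2th replicate 1, against 21 to 137 in each of the others. Genes at most 1/3 of that median numbered 541 in Slit2fl/fl replicate 1. By this count Slit2th replicate 1 did not stand apart, at 218 against 259 in each of the other Slit2th libraries. Fold changes of the myelin genes are therefore also shown without replicate 1 of either group, where they could be tested. Values of the marker lists and related lists are given with all libraries only, also where 1 library carries them.

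The labelled cell type was checked with 12 sympathetic neuron markers, of which 10 were in the table and 4 were tested. Th, the enzyme that starts catecholamine synthesis and whose promoter drives the Cre, was at 0 counts in all 6 libraries. The summed level of the neuron list was 573.8, 167.9 and 191.6 CPM in Slit2fl/fl against 184.6 to 189.9 CPM in Slit2th, carried largely by Tubb3 and Uchl1. The 10 pan-Schwann and glial markers, of which 9 were tested with 4 negative and 5 positive log2 fold changes (median 0.33), summed to 22765, 6638 and 8129 CPM in Slit2fl/fl against 6570 to 8548 CPM in Slit2th. The high sum of Slit2fl/fl replicate 1 came from Cryab alone, at 19529 CPM there against 2228 to 3556 CPM in the other libraries. Of the 10 markers, 3 were highest in that library. Sox10, required in the Schwann cell lineage, was at 698.1, 443.3 and 615.2 CPM in Slit2fl/fl against 632.8, 505.3 and 474.1 CPM in Slit2th, so the groups overlapped. The libraries thus held abundant RNA of glial genes, whatever their label. In bulk samples fewer cells of a type and less RNA per cell cannot be told apart, which holds for every difference below.

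No myelin protein gene passed the adjusted threshold, as did no gene of the whole table (0% of those tested). In Slit2th, Gjb1 and Prx were lower in every library and Cldn11 higher in every library, and all 3 rested on few counts. Their unadjusted p-values, given with each gene, were under 0.05, but Prx and Cldn11 passed the filter on low values through the group in which they were higher, so that their tests carry no weight of their own. Mbp had a mean 3.65-fold higher in Slit2fl/fl, but 1 of the 3 Slit2fl/fl libraries carried this difference. Pmp22 was modestly lower in every Slit2th library, Mal was high in 1 Slit2th library, Pllp was at like levels in both groups, and Mag was close to the limit of detection. The plot of levels by library shows the values behind each of these statements.

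**Figure D1:**
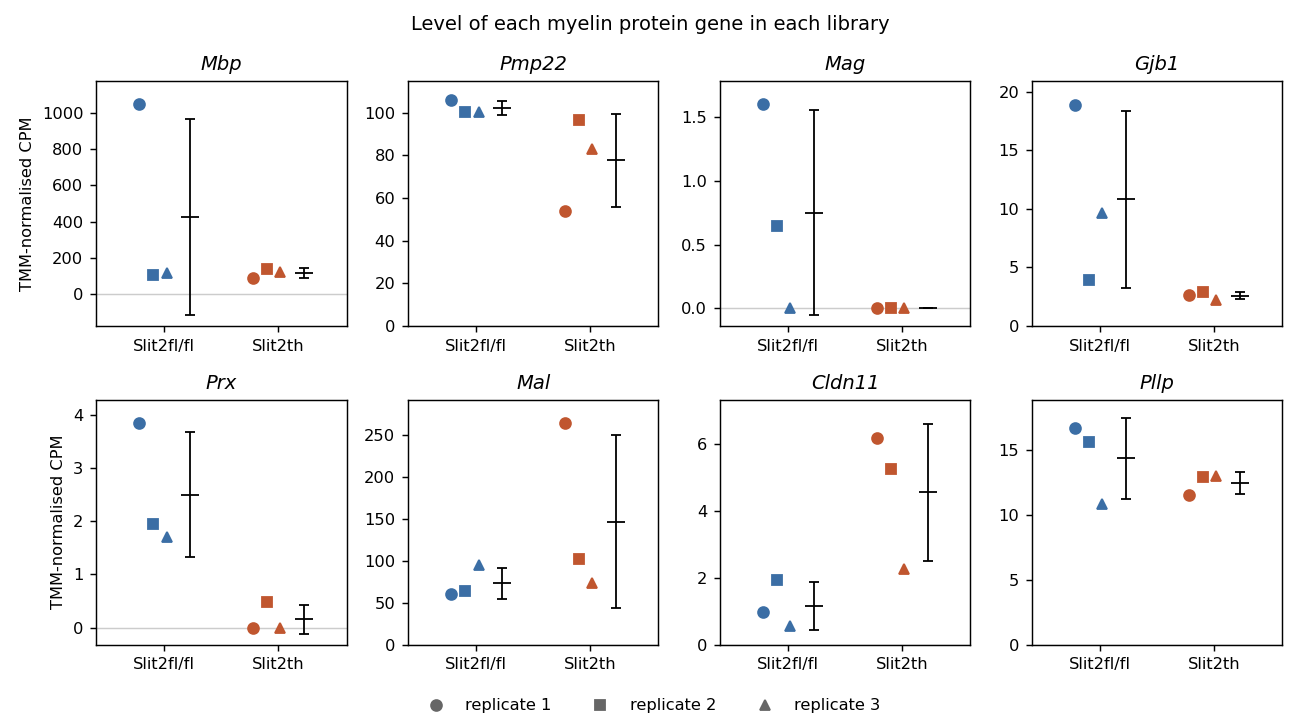
TMM-normalised CPM (y axis, linear, a scale for each gene) of the 8 myelin protein genes in the 3 Slit2fl/fl and 3 Slit2th libraries; circles, squares and triangles are replicates 1, 2 and 3, and bars are the mean ± SD of 3 libraries. Mbp at 1051 CPM in Slit2fl/fl replicate 1 and Mal at 264.8 CPM in Slit2th replicate 1 stand far from the other 5 libraries, whereas Gjb1, Prx and Cldn11 separate the groups at low levels.

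Mbp (ENSMUSG00000041607, GRCm38 chr18:82475146-82585637, plus strand, 13 merged exons) encodes myelin basic protein, which binds the cytoplasmic faces of the membrane together in compact myelin. Its level was 1051, 106.3 and 116 CPM among the Slit2fl/fl libraries but 88.3, 137.9 and 122.5 CPM among those of Slit2th. Slit2fl/fl replicate 1 was 9.06-fold above the median of the other 5, a ratio reached in that library by 184 of the 7483 genes (2.46%), and the other 2 Slit2fl/fl libraries lay within the Slit2th range. The group values were 424.3 ± 542.4 and 116.2 ± 25.4 CPM (SD, n = 3), with a log2 fold change of −1.87 (SE 0.827, p = 0.0498, adjusted p = 0.463, edgeR) and an exact permutation p of 0.6. Without Slit2fl/fl replicate 1, the log2 fold change was 0.065 (SE 0.28, adjusted p = 0.967, edgeR). The Mbp locus also holds the golli exons, which are used outside myelin, and gene counts do not separate these transcripts.

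Markers of oligodendrocytes were read in the same library. Of 13 listed genes, 10 were in the table and 6 were tested, 4 with a negative and 2 with a positive log2 fold change, at a median of −0.27. Their sum was 991.4, 2040 and 2403 CPM in Slit2fl/fl against 2289 to 3866 CPM in Slit2th, nearly all of it from Aspa, an enzyme that breaks down N-acetylaspartate, which was lowest in Slit2fl/fl replicate 1 at 926.1 CPM. The lineage factor Olig2 had 6 counts, Gpr17 6 counts and Opalin 5 counts in Slit2fl/fl replicate 1, and all 3 were at 0 in the other 5 libraries. Olig1 had 134 counts there (42.9 CPM) against 5.25 to 23.8 CPM elsewhere, Nkx6-2 had 18 counts there against 0 to 2, and Enpp6 was at 0 in every library. Other markers of the list were not highest there, with Ermn at 6.08 CPM against 3.39 to 6.18, Bcas1 at 3.52 CPM against 0.882 to 6.82 and Myrf at 1.6 CPM against 0 to 2.39. The same library held 19529 CPM of Cryab, a small heat shock protein abundant in glia, against 2228 to 3556 CPM in the others. The part of these genes in the Mbp level was not tested.

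Pmp22 (ENSMUSG00000018217, GRCm38 chr11:63128982-63159547, plus strand, 8 merged exons) encodes a tetraspan protein of compact myelin whose gene dosage must be kept, as extra or missing copies cause inherited neuropathies. It was the steadiest of the 8 genes in the controls, at 105.7, 100.5 and 100.1 CPM in Slit2fl/fl. The Slit2th libraries were at 53.8, 96.4 and 83 CPM, each below all of the controls, with replicate 1 lowest. The means were 102.1 ± 3.13 and 77.7 ± 21.8 CPM (SD, n = 3), with a log2 fold change of −0.39 (SE 0.344, adjusted p = 0.651, edgeR). The exact permutation p was 0.1, the smallest that 3 against 3 allows. Without Slit2th replicate 1 the log2 fold change was −0.18 (SE 0.327, adjusted p = 0.816, edgeR).

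Mal (ENSMUSG00000027375, GRCm38 chr2:127633226-127656695, minus strand, 4 merged exons) encodes a proteolipid that carries raft lipids and proteins to the apical or myelin membrane. Its level was 60.2, 64.2 and 94.4 CPM in Slit2fl/fl against 264.8, 101.6 and 73.4 CPM in Slit2th. The high Slit2th replicate 1 was 3.61-fold above the median of the other 5 libraries, and Slit2th replicate 3 lay inside the control range. The means were 72.9 ± 18.7 and 146.6 ± 103.3 CPM (SD, n = 3), the log2 fold change was 1.004 (SE 0.505, adjusted p = 0.491, edgeR) and the exact permutation p was 0.2. Without Slit2th replicate 1 the log2 fold change was 0.27 (SE 0.371, adjusted p = 0.754, edgeR).

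Slit2th replicate 1 also had the highest summed level of macrophage markers. All 13 macrophage markers were in the table and 10 were tested, of which 10 had a positive log2 fold change (median 1.73) and 5 an unadjusted p under 0.05. Over all genes tested, 52.2% had a negative log2 fold change and 3.99% were higher in Slit2th at that level. Among those with an unadjusted p under 0.05, Mrc1 and Ptprc, named after their values were seen, were below 1 CPM in every Slit2fl/fl library. Their counts were 0, 0 and 0 against 3, 3 and 9, and 2, 0 and 1 against 3, 3 and 5. Both passed the filter through Slit2th alone, so their direction and p carry no weight of their own. The macrophage markers summed to 128.1, 68 and 33.5 CPM in Slit2fl/fl against 670.7, 126.9 and 148.4 CPM in Slit2th. Aif1, a macrophage cytoskeletal protein, had 206 counts in Slit2th replicate 1 and at most 2 in any other library. Lyz2, lysozyme, was at 285.1 CPM there against 17.1 to 79 CPM, and the complement gene C1qa at 74.1 CPM against 0 to 3.2 CPM. These 3 genes made most of the sum, and 6 of the 13 markers were highest in that library, while Csf1r, the receptor that macrophages need for survival, was at 0 in it. T cell markers were scarce, with 4 of 7 in the table, 0 tested and sums of 0 to 0.64 CPM in Slit2fl/fl against 0 to 5.29 CPM in Slit2th, where Cd3d had 5 counts, all of them in replicate 1. Mal is also expressed in T cells, and the part of immune cells in the Mal level was not tested.

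Pllp (ENSMUSG00000031775, GRCm38 chr8:94674894-94696278, minus strand, 6 merged exons) encodes plasmolipin, a raft proteolipid of the same protein family as Mal. It was at 16.6, 15.6 and 10.8 CPM in Slit2fl/fl against 11.5, 12.9 and 13 CPM in Slit2th. The Slit2th libraries all lay inside the Slit2fl/fl range (14.3 ± 3.11 against 12.4 ± 0.844 CPM, SD, n = 3). The log2 fold change was −0.20 (SE 0.414, adjusted p = 0.853, edgeR), with an exact permutation p of 0.4. An antisense gene, Gm45767, shares 1128 bases with its exons, and reads of the pair cannot be told apart without strand.

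Gjb1 (ENSMUSG00000047797, GRCm38 chrX:101376378-101385629, plus strand, 4 merged exons) encodes a connexin that forms gap junctions between the layers of noncompact myelin, a shortcut for small molecules across the sheath, and its loss causes X-linked Charcot-Marie-Tooth disease. Its counts were 59, 6 and 17 in Slit2fl/fl against 3, 6 and 4 in Slit2th. As levels these were 18.9, 3.89 and 9.66 CPM against 2.65, 2.86 and 2.26 CPM, so all 3 Slit2th libraries lay below all 3 of Slit2fl/fl, although Slit2fl/fl replicate 2 was close to the Slit2th values. The means were 10.8 ± 7.57 and 2.59 ± 0.307 CPM (SD, n = 3), with a log2 fold change of −2.06 (SE 0.677, p = 0.0135, adjusted p = 0.422, edgeR) and an exact permutation p of 0.1. Pooled counts of 82 against 13 gave a ratio of 4.91 between Slit2fl/fl and Slit2th (95% exact interval 2.72 to 9.61, counting error only). Without Slit2fl/fl replicate 1 the log2 fold change was −1.37 (SE 0.601, adjusted p = 0.675, edgeR).

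Promoters are shown for Prx, Gjb1 and Cldn11, which had the 3 log2 fold changes farthest from 0 among the genes tested, a choice made after their values were seen. Each line below is the stretch of 250 bases just upstream of a transcription start in RefSeq (GRCm38.p6), 5′ to 3′ on the gene's own strand. Capitals mark a SOX core, ACAAAG or ACAATG on either strand. No match overlapped another. Gjb1 has 4 RefSeq start sites, of which the most upstream and the most downstream are printed.
Gjb1 upstream start, chrX:101376126-101376375, plus strand: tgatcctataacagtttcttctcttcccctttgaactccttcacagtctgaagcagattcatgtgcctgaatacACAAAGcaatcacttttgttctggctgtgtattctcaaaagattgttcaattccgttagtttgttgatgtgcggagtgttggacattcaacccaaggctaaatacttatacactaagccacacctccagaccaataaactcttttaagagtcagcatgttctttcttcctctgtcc
Gjb1 downstream start, chrX:101383482-101383731, plus strand: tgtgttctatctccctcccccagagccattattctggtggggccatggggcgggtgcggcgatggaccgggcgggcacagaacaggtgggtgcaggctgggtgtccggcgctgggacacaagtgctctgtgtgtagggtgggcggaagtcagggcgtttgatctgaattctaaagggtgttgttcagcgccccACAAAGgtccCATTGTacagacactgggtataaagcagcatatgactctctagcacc
Prx, chr7:27499074-27499323, plus strand: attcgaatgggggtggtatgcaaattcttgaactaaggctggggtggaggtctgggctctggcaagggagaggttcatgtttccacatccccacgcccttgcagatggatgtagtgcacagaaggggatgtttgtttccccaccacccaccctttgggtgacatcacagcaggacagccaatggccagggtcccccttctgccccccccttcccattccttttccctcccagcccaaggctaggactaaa
Cldn11, chr3:31149670-31149919, plus strand: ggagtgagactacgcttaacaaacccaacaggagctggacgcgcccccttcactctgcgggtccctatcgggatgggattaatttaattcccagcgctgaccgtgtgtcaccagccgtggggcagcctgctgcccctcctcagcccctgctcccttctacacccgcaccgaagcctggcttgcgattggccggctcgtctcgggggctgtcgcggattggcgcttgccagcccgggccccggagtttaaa

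The downstream Gjb1 start held 2 SOX cores, ACAAAG and CATTGT (the reverse complement of ACAATG), 4 bases apart, the upstream start held 1, and the other 2 Gjb1 windows, which are not printed, held 0. The Prx and Cldn11 stretches held 0. Of 32851 RefSeq promoter windows of the same length, 25.2% held at least 1 SOX core. An EGR core, GCGTGGGCG or GCGGGGGCG on either strand, was in 0 of these 4 stretches and in 3.06% of all windows. RefSeq windows were read for 7 of the 8 genes, as Mbp, on chromosome 18, was left out of this search. Mag windows, not printed, held 1 SOX core at chr7:30914864-30915113 and 1 at chr7:30914923-30915172, which overlap and share that core. The Mag window at chr7:30914322-30914571 held 0, as did all windows of Pmp22, Mal and Pllp. The matches describe letters only, and binding was not measured.

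Prx (ENSMUSG00000053198, GRCm38 chr7:27499324-27520214, plus strand, 6 merged exons) encodes periaxin, the scaffold that ties the outer Schwann cell membrane to the dystroglycan complex through Drp2 and keeps the cytoplasmic channels of the sheath open. It had 12, 3 and 3 counts in Slit2fl/fl against 0, 1 and 0 in Slit2th. In CPM these were 3.84, 1.94 and 1.71 against 0, 0.477 and 0, with no overlap and with the Slit2th libraries all under the floor. The log2 fold change was −3.35 (SE 1.1, p = 0.0139, adjusted p = 0.422, edgeR), and pooled counts of 18 against 1 gave a ratio of 14 (95% exact interval 2.21 to 583.8, counting error only). Prx reached 1 CPM in 3 Slit2fl/fl and 0 Slit2th libraries, so it could be tested only because it was higher in the controls, and without any 1 Slit2fl/fl library it was not tested. An antisense gene, Gm15541, shares 300 bases with its exons.

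Mag (ENSMUSG00000036634, GRCm38 chr7:30899176-30914873, minus strand, 12 merged exons) encodes myelin-associated glycoprotein, a sialic acid-binding adhesion molecule of the innermost turn that faces the axon. It had 5, 1 and 0 counts in Slit2fl/fl against 0 in each Slit2th library. Over the group this was 0.934 CPM in Slit2fl/fl, 1.56-fold the 0.6 CPM that a count of 0 over the 3 Slit2th libraries allows. This ratio leaves out the counting error of the 6 control counts, so it is no lower bound of the difference. The groups overlapped, and the exact permutation p was 0.4. A difference in Mag between the genotypes was therefore not detectable beyond the spread at this depth.

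Cldn11 (ENSMUSG00000037625, GRCm38 chr3:31149920-31164324, plus strand, 3 merged exons) encodes a claudin best known from the tight junctions of central myelin and of the testis. Its counts were 3, 3 and 1 in Slit2fl/fl against 7, 11 and 4 in Slit2th, so the controls were at or under the floor of 3 counts. The levels of 0.961, 1.94 and 0.569 CPM in Slit2fl/fl were all below those of 6.18, 5.25 and 2.26 CPM in Slit2th, with a narrow gap between Slit2fl/fl replicate 2 and Slit2th replicate 3. The means were 1.16 ± 0.709 and 4.56 ± 2.05 CPM (SD, n = 3), with a log2 fold change of 1.95 (SE 0.782, p = 0.0341, adjusted p = 0.447, edgeR) and an exact permutation p of 0.1. Pooled counts of 22 in Slit2th against 7 gave a ratio of 4.04 (95% exact interval 1.67 to 11.2, counting error only). The filter on low values was passed through the 3 Slit2th libraries, with 1 Slit2fl/fl library at 1 CPM or more.

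Markers of nerve connective tissue were read beside Cldn11. All 8 fibroblast markers had a positive log2 fold change (median 0.72, 3 with an unadjusted p under 0.05), and their sum was 2588, 3772 and 3103 CPM in Slit2fl/fl against 3611, 4877 and 5399 CPM in Slit2th. Of all genes tested, 52.2% had a negative log2 fold change and 3.99% were higher in Slit2th at that level. Perineurial markers, of which 5 of 6 were in the table and all 5 were tested, had 3 positive and 2 negative values (median 0.80), with Slc2a1, a glucose transporter, lower in every Slit2th library (log2 fold change −1.11, unadjusted p = 0.0193, edgeR). The perineurial sum was 352.6 to 1020 CPM in Slit2fl/fl against 1101 to 1353 CPM in Slit2th, nearly all of it from Itgb8, an integrin subunit, at 313.5, 981.3 and 792 CPM against 1076, 1255 and 1315 CPM. Endothelial markers, 4 of 7 tested, had a median of 0.03 and sums of 18.8 to 32.3 CPM in Slit2fl/fl against 15 to 18.6 CPM in Slit2th. The part of these cells in the Cldn11 level was not tested.

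Counted over the 7 genes tested, 3 had an unadjusted p under 0.05 with a lower value in Slit2th (Mbp, Gjb1 and Prx), where 6.78% of all genes tested did so, and 1 with a higher value (Cldn11), where 3.99% did. The Slit2th libraries all lay below the Slit2fl/fl libraries for 3 of them (Pmp22, Gjb1 and Prx), against 9.72% of all genes tested. The reverse held for 1 (Cldn11), against 8.74%. Of the 7 log2 fold changes, 5 were negative and 2 positive, with a median of −0.39 beside −0.05 over all genes tested, of which 52.2% were negative. These counts include genes that passed the filter through the higher group alone and carry no test. Without replicate 1 of Slit2fl/fl, 0 of the 6 genes still tested had an unadjusted p under 0.05 and the median was −0.005. Leaving out Slit2th replicate 1 in its place gave 2 of 7 and a median of −0.18.

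**Figure D2:**
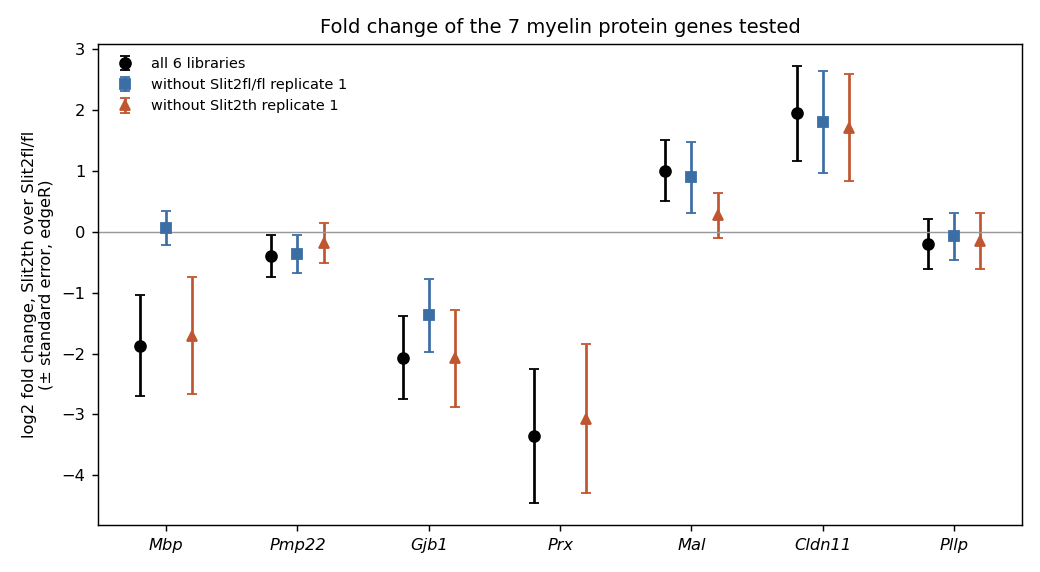
Log2 fold change of Slit2th over Slit2fl/fl (y axis, bars ± standard error, edgeR) for the 7 myelin protein genes tested, with all 6 libraries and without replicate 1 of either group; Prx was not tested without Slit2fl/fl replicate 1. Mbp moves from −1.87 to 0.065 without Slit2fl/fl replicate 1 and Mal from 1.004 to 0.27 without Slit2th replicate 1, while Cldn11 lies between 1.71 and 1.95 in the 3 fits.

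Of the 8 genes, 6 had their highest level in Slit2fl/fl replicate 1, namely Mbp, Pmp22, Mag, Gjb1, Prx and Pllp, and by margins as different as 1051 against at most 137.9 CPM for Mbp and 105.7 against at most 100.5 CPM for Pmp22. The other 2, Mal and Cldn11, were highest in Slit2th replicate 1. Measured as the root mean square difference of gene-centred log2(CPM + 1) over the 6 libraries, the closest pair was Pmp22 and Pllp (0.288) and the farthest Mbp and Cldn11 (1.72). Gjb1 and Prx differed by 0.45, and Mal and Cldn11 by 0.608. The members' summed level was 1258, 294.9 and 333.2 CPM in Slit2fl/fl against 427.1, 357.4 and 296.3 CPM in Slit2th, and Mbp made up 83.5% of it in Slit2fl/fl replicate 1 against 20.7% to 41.3% in the other libraries. Without Mbp the sums were 207.8, 188.6 and 217.2 CPM and 338.9, 219.5 and 173.8 CPM, so the groups overlapped.

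**Figure D3:**
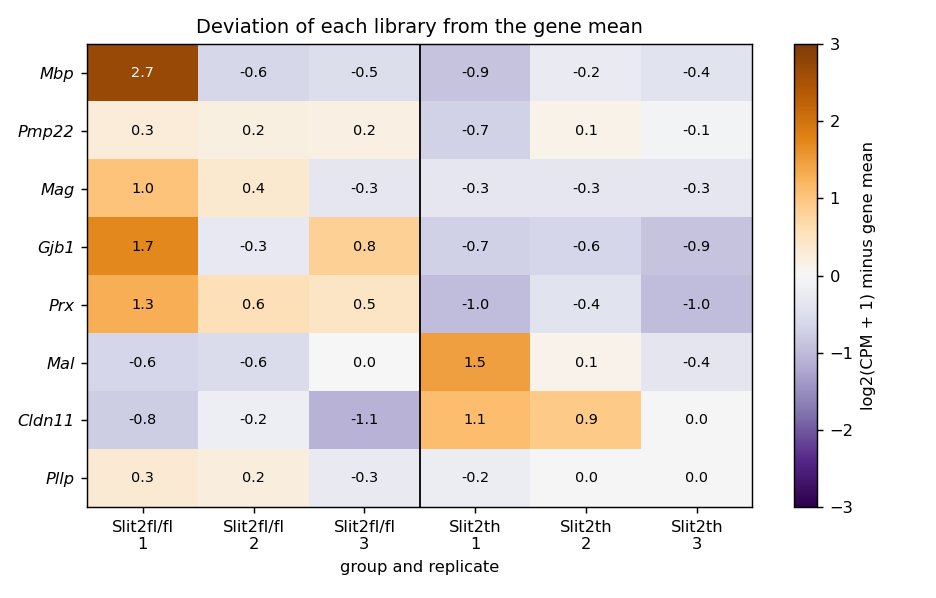
Deviation of each library (columns, 3 Slit2fl/fl and 3 Slit2th) from the gene's mean over 6 libraries on the log2(CPM + 1) scale, for the 8 myelin protein genes (rows); orange is above and purple below the mean. Mbp, Pmp22, Mag, Gjb1, Prx and Pllp are highest in Slit2fl/fl replicate 1, and Mal and Cldn11 in Slit2th replicate 1.

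Among 7482 or 7483 other tested genes with a mean of at least 10 CPM, the 2 nearest to each myelin gene were found by the same measure, a likeness of profile only. Nearest to Mbp were Prim2 (0.15) and Rai14 (0.194), which were likewise high in Slit2fl/fl replicate 1. Pmp22 was nearest to Ylpm1 (0.058) and Zc3hav1 (0.073), and Pllp to Acat1 (0.078) and the glycolytic enzyme Aldoa (0.082). Gjb1 had Spats2 (0.162) and the axonal motor Kif1a (0.164), and Prx had Adi1 (0.078) and the replication checkpoint adaptor Clspn (0.162). Mal was nearest to Pick1 (0.117) and Tnks (0.137), and Cldn11 to Gfod2 (0.146) and Sepsecs (0.25). Mag, with counts in 2 libraries, was nearest to Ascc2 (0.052) and Wnk1 (0.107). All these distances share the same 6 libraries.

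Levels were compared between genes only per kilobase of merged exon. This length joins the exons of all transcripts of a gene, and was 8.469 kb over 16 transcripts for Mbp. For Pmp22 it was 2.354 kb and for Mal 2.778 kb. Where transcripts use only part of the merged exons, the value is too low, so the place of Mbp in the order depends on this length. On this scale the median over the 6 libraries ran from Pmp22 (41.7 CPM per kb, range 22.9 to 44.9) through Mal (30.2, range 21.7 to 95.3), Mbp (14.1, range 10.4 to 124) and Pllp (6.21, range 5.19 to 7.99) to Gjb1 (1.98, range 1.32 to 11.1), Cldn11 (1.12, range 0.304 to 3.3), Prx (0.196, range 0 to 0.689) and Mag (0, range 0 to 0.393). The median over all genes tested was 3.19 CPM per kb. Of neighbours in this order, only Mbp was above the next gene, Pllp, in all 6 libraries. Pmp22 was above Mal in 5 and Mal above Mbp in 5, and each of Pllp, Gjb1, Cldn11 and Prx was above the next gene in 4. The order differed between the groups: in Slit2th the median of Mal (36.6 CPM per kb) was above that of Pmp22 (35.2), and that of Cldn11 (2.81) above that of Gjb1 (1.55), whereas in Slit2fl/fl they were 23.1 for Mal, 42.7 for Pmp22, 0.514 for Cldn11 and 5.66 for Gjb1. Pmp22, Mal, Mbp and Pllp had medians above that of all genes tested in both groups, Gjb1 in Slit2fl/fl alone, and Cldn11, Prx and Mag in neither.

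Other genes of the sheath were divided in direction. Of 8 further compact myelin and tetraspan genes 7 were tested, 2 with negative and 5 with positive log2 fold changes (median 0.28), and 0 passed the adjusted threshold. Gpm6b, a proteolipid of glial and neuronal membranes, was at 703.2, 1617 and 1684 CPM in Slit2fl/fl against 1907, 2188 and 2084 CPM in Slit2th (log2 fold change 0.63, SE 0.399, adjusted p = 0.555, edgeR). It was higher in every Slit2th library and lowest in Slit2fl/fl replicate 1, the library in which Mbp was highest. Cnp, an enzyme of noncompact myelin cytoplasm, was at 342.9, 152.3 and 197.9 CPM in Slit2fl/fl against 222.4, 164.1 and 177.2 CPM in Slit2th, with overlap and its highest value in the same library as Mbp. The tetraspanin Cd9 was at 74.9, 180.8 and 180.8 CPM in Slit2fl/fl against 161.5, 231.9 and 189.6 CPM in Slit2th, with overlap. The tetraspanin Cd82 had the lowest unadjusted p of this list, 0.0274, from 54, 1 and 5 counts in Slit2fl/fl against 1, 0 and 2, so that 1 library held nearly all of its counts.

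Junction and adhesion genes of the sheath, 9 of 11 tested, had 3 negative and 6 positive values (median 0.18), and 0 had an unadjusted p under 0.05. Gldn, the gliomedin that Schwann cells present at nodes, was at 563.3, 608 and 660.7 CPM in Slit2fl/fl against 526.9, 604.5 and 613.5 CPM in Slit2th, and the gap junction gene Gjc3 was at 72.7 to 94.6 and 86.5 to 102.1 CPM. The 8 partners of periaxin and integrins at the outer membrane were all tested and split into 4 negative and 4 positive values (median −0.01), 0 of them at an unadjusted p under 0.05. Dag1, dystroglycan itself, was at 675, 572.3 and 452.6 CPM against 357.4, 522.4 and 522.6 CPM, so the levels of Dag1 overlapped. Adgrg6, an adhesion receptor needed for myelination and named after its values were seen, was higher in every Slit2th library, at 73.3, 146.5 and 139.9 CPM against 149.1, 228.1 and 198.1 CPM (exact permutation p = 0.1).

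Enzymes of myelin lipid synthesis, 11 of 12 tested, had 3 negative and 8 positive values (median 0.36). Of these, Fdft1, squalene synthase, had an unadjusted p under 0.05, at 30.7, 8.43 and 13.1 CPM in Slit2fl/fl against 3.53, 6.68 and 4.51 CPM in Slit2th (log2 fold change −1.81, SE 0.602, adjusted p = 0.422, edgeR), with no overlap. Hence the list held 1 gene lower at that level and 0 higher.

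Transcription regulators listed as activators of myelination, the corepressor Nab2 among them, were tested for 11 of 12. They had 6 negative and 5 positive values (median −0.02), which is no tally of activators alone. Nab2, the corepressor that binds Egr proteins, was at 33.6, 5.83 and 10.2 CPM in Slit2fl/fl against 3.53, 1.43 and 5.64 CPM in Slit2th, without overlap (log2 fold change −2.25, SE 0.784, adjusted p = 0.422, edgeR). Zeb2, which lifts repression of myelin genes, was lower in Slit2fl/fl throughout, at 444.1, 1032 and 830.7 CPM against 1315, 1274 and 1351 CPM (log2 fold change 0.77, SE 0.38, adjusted p = 0.485, edgeR). Sox10 overlapped between the groups, as given above. Genes of immature, non-myelinating and repair Schwann cells, 13 of 14 tested, had 6 negative and 7 positive values (median 0.08) and 0 at an unadjusted p under 0.05. Of these, Sox2, which holds Schwann cells immature, was at 374.7, 1038 and 761.3 CPM in Slit2fl/fl against 1123, 1167 and 1272 CPM in Slit2th, with no overlap (exact permutation p = 0.1). The low-affinity neurotrophin receptor Ngfr was at 604.2, 392.1 and 309.3 CPM against 751, 492.4 and 396.2 CPM, and overlapped.

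**Figure D4:**
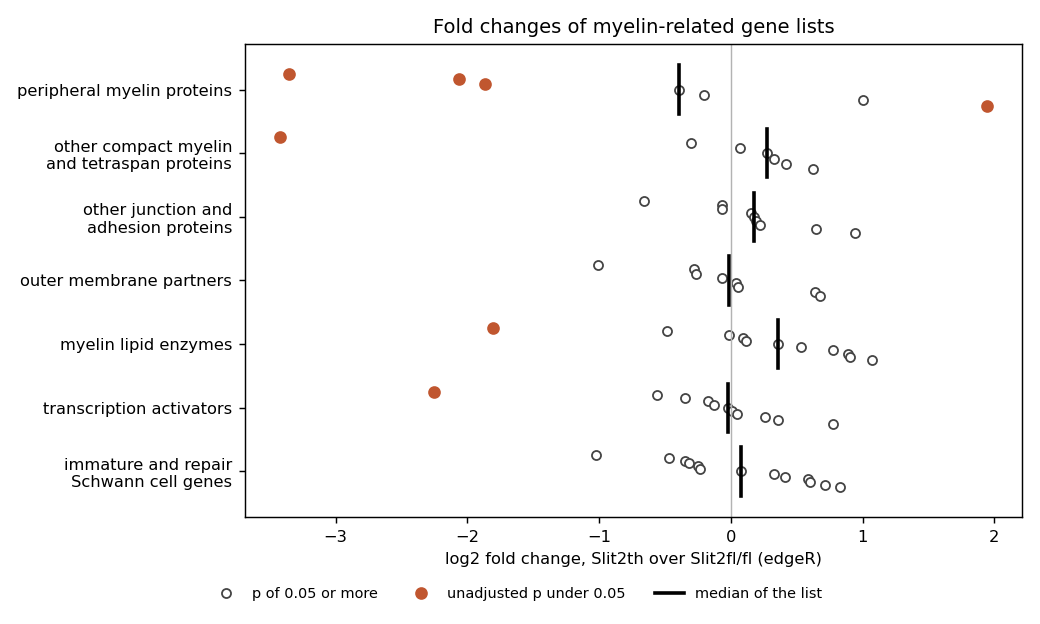
Log2 fold change of Slit2th over Slit2fl/fl (x axis, edgeR) for each tested gene of the peripheral myelin protein genes and of 6 related lists (rows); filled points have an unadjusted p under 0.05, and black bars are list medians. The medians lie between −0.39 for the myelin protein genes and 0.36 for the lipid enzymes, and the filled myelin protein genes are Prx, Gjb1, Mbp and Cldn11, of which Prx and Cldn11 passed the filter through their higher group and Mbp rests on 1 library.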

How the data were processed

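RNA-Seq counts were analysed for 6 libraries. Per the study's methods, the authors prepared libraries with the Illumina TruSeq kit and aligned reads with HISAT2 to mm10, whereas the submitters' processing notes name GRCm39. The authors deposited raw whole-number counts per gene, with no normalization, and no column of their own comparisons. The counting program, strand setting and annotation were not given in the sources used here. Gene identifiers were matched to GENCODE M21 (GRCm38), in which 20166 of 20173 were found, for positions and exon lengths. Promoters came from RefSeq (GRCm38.p6).

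The software was edgeR 4.0.16, DESeq2 1.42.0 and limma 3.58.1 under R 4.3.3. After a filter that asked for 1 CPM or more in 3 or more libraries, genes were scaled by TMM and compared without covariates by edgeR's quasi-likelihood test, with Benjamini-Hochberg adjusted p under 0.05 as threshold. Single genes were compared by two-sided exact permutation of log2(CPM + 1), for which 0.1 is the smallest p. The members, the 6 related lists and the cell type and proliferation marker lists were chosen with earlier results of these data known. Genes named were the members, Slit2, up to 3 genes per list of highest mean CPM, those of the related lists with an unadjusted p under 0.05, and the 2 genes nearest in pattern to each member. Exceptions, named after their values were seen, were, among markers, Th, Olig2, Gpr17, Opalin, Nkx6-2, Enpp6, Bcas1, Myrf, C1qa, Csf1r and those so described in the text. Some genes of these lists are not reported here and were left out of them. Gene counts in exons shared by antisense pairs are uncertain. Alternatives were other scalings, filters, tests, a replicate block and left-out libraries.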

Additional observations from a re-analysis of the deposited data

How the results depend on the processing

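No myelin protein gene was called at an adjusted p of 0.05 or 0.1 in any alternative run. Mbp, Prx and Cldn11 had no adjusted p by DESeq2 and could not be called there, and Prx and Cldn11 were not tested in every run. Genes called over the whole table numbered 0 by edgeR's quasi-likelihood test and 0 by limma-voom and the newer quasi-likelihood fit (1309, 1202 and 1462 at an unadjusted p under 0.05), against 7 with no filter, 31 by DESeq2, 17 by edgeR's exact test and 377 with replicate number 1 left out of both groups. Leaving out 1 library at a time gave 0 to 1. The members' median log2 fold change was −1.13 with no filter, 0.047 with replicate number 1 left out of both groups, and −0.56 to −0.005 with 1 library left out. Mbp, at −2.415 to 0.065 with 1 library left out, reversed to 0.065 without Slit2fl/fl replicate 1 and to 0.21 with replicate number 1 left out of both groups (adjusted p = 0.967 and 0.654, edgeR), since only Slit2fl/fl replicate 1 was high. Mag, tested with no filter only, was at −3.76 (adjusted p = 0.551, edgeR). Of the genes tested, the other 6 kept their direction: Gjb1 from −2.58 to −1.37, Prx from −5.31 to −2.64 in the 12 alternatives that tested it, Cldn11 from 1.57 to 2.41, Mal from 0.13 to 1.56, Pmp22 from −0.63 to −0.17 and Pllp from −0.44 to −0.04. The labels do not say whether same-numbered libraries were paired. Deviations of same-numbered libraries correlated at 0.29, 0.242 and 0.0795, against −0.309 to 0.252 for pairs of different number across the groups. Not every library correlated best with its own number, and a pairing by number was not established. With the replicate block 0 genes and 0 members were called, the members' median was −0.43, and 1614 genes and 2 members had an unadjusted p under 0.05. Depth limits Mag, Prx, Cldn11 and Gjb1, whose libraries often held fewer than 10 counts.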

Other observations

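Proliferation genes are no part of the myelin lists. All 9 listed genes were tested, 9 had a negative log2 fold change (median −0.93) where 52.2% of all genes tested did, 4 of them with an unadjusted p under 0.05 (6.78% of all genes tested were lower at that level) and 0 with an adjusted p under 0.05 (edgeR). Their sum was 344.6, 440.1 and 389.5 CPM in Slit2fl/fl against 137.7, 227.6 and 255.7 CPM in Slit2th, without overlap, although Ccna2, Ccnb1, Cdk1 and Bub1, cell cycle regulators named after their values were seen, overlapped between the groups. Mki67, a marker of cycling cells, was at 106.6, 109.5 and 93.8 CPM against 20.3, 56.8 and 64.3 CPM (log2 fold change −1.12, SE 0.447, adjusted p = 0.442, edgeR). The part of cell cycling in the levels of the myelin genes was not tested.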
